A study of Mus musculus with 15 samples.

Results

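H3K27ac peaks were described around 9 genes of the Hedgehog pathway, Ptch1, Smo, Gli1, Gli2, Gli3, Sufu, Hhip, Boc and Cdon, in a mouse tumor model of fusion-positive rhabdomyosarcoma. This acetylation of histone H3 is typical of enhancers and promoters in use, and a peak is a stretch of the genome where the peak caller found more fragments than in the background. A peak was taken when at least 1 bp of it overlapped the RefSeq span of a gene or the 50 kb on either side, and 303 of the 122375 peaks in the list met this rule. Each peak was put in the promoter class (within 2 kb of a curated RefSeq start site of the gene), in the gene body class (elsewhere in the span) or in the flank. The series held 15 CUT&RUN libraries, a method in which a nuclease tethered to an antibody releases the DNA beside it. With the H3K27ac antibody there were 6 libraries of MCP tumors and 3 of TCP tumors, and each tumor type had 3 more with IgG, the control that has no target of its own. MCP mice combined Myf6-Cre with the alleles R26-tdTom, Pax(3P3F/P3F) and Cdkn2a(Flox/Flox), and TCP mice had Tek-Cre in place of Myf6-Cre with the same other alleles. In both, Cre turns on the PAX3-FOXO1 fusion, deletes Cdkn2a and marks cells with the fluorescent protein tdTomato. Myf6-Cre is active in myogenic cells and Tek-Cre in endothelial and hematopoietic cells. The ages of the mice are not given in the labels used here. The list analysed was that of MCP replicate 5, so there is no replicate, no test and no comparison of the tumor types, and the TCP libraries were not analysed here. The methods of the study describe live tumor cells sorted from dissociated tumors, and the label names DAPI, a stain for dead cells, as the marker of that sort. What share of the sorted cells came from the host is not known here. In such a bulk sample, fewer cells that carry the mark and less of the mark per cell cannot be told apart.

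Hedgehog ligands bind the receptor PTCH1, which otherwise holds the membrane protein SMO inactive at the primary cilium. BOC and CDON are cell surface co-receptors of the ligands and HHIP is a decoy that binds them. Active SMO frees the GLI transcription factors from SUFU, GLI1 and GLI2 then act mainly as activators and GLI3 largely as a repressor after partial proteolysis, and Ptch1, Gli1 and Hhip are themselves induced by the pathway in many tissues. The pathway patterns the embryonic somite and its myogenic cells.

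The promoter sequences of 4 members show the range of start sites in the data. Gli3 and Ptch1 had a peak within 2 kb of the start site shown, Hhip had none although its start is also rich in CpG, and the curated start of Cdon is poor in CpG and had peaks. Each runs from 250 bases before to 50 bases after the start site on the strand of the gene (RefSeq, GRCm38.p6, the same coordinates as mm10), and capitals mark CpG dinucleotides.
Gli3 promoter, chr13:15463473-15463772, plus strand: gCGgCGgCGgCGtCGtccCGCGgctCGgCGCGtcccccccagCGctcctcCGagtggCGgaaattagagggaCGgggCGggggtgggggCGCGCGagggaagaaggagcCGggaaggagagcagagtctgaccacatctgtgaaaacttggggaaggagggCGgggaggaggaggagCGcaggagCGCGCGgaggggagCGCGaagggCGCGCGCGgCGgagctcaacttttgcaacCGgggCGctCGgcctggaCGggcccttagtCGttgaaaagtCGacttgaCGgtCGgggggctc
Ptch1 promoter, chr13:63565686-63565985, minus strand: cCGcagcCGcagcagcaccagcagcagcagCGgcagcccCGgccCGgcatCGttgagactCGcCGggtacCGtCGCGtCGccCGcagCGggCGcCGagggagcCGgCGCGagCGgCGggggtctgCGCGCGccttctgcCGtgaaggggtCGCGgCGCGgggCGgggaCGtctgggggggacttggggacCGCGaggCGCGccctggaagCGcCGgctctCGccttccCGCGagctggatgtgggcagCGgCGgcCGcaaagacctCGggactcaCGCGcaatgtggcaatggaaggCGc
Hhip promoter, chr8:80057959-80058258, minus strand: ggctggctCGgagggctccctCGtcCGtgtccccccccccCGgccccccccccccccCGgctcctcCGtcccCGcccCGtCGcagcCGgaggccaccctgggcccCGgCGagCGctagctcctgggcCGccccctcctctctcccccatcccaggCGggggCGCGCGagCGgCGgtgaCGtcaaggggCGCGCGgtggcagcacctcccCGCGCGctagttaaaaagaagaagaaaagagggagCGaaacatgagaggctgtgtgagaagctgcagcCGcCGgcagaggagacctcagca
Cdon promoter, chr9:35451826-35452125, plus strand: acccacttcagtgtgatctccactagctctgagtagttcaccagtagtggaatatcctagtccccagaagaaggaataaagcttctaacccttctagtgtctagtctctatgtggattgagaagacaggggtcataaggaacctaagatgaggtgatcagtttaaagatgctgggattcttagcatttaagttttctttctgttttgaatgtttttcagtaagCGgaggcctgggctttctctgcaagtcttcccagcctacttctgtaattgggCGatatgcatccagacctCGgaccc
The 300 bases held 39 CpG dinucleotides for Gli3, 47 for Ptch1, 30 for Hhip and 3 for Cdon. The sequence table held a promoter of 7 of the 9 members.

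Sequences around the summits, the points of highest fragment number within a peak, are given for the strongest peak of Gli3, Boc, Sufu and Gli2. Another is given for a Gli3 intron peak with 3 kinds of motif in the window around its summit. Each is 300 bases of the plus strand of mm10, and capitals mark matches, on either strand, to an AP-1 motif (TGANTCA), a forkhead motif (TGTTTAC), a PAX paired core (GTCACGC) or an E-box (CAGCTG). The last 3 are letters that forkhead factors such as FOXO1, paired-domain factors such as PAX3 and myogenic E-box factors are known to prefer.
Gli3 intron 10 summit, chr13:15691713-15692012, plus strand: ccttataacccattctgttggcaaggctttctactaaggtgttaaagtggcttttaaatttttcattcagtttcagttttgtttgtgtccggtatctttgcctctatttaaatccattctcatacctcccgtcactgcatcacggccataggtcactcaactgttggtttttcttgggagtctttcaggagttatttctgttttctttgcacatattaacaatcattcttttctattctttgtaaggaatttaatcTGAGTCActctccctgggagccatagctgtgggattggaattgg
Boc intron 1 summit, chr16:44545085-44545384, plus strand: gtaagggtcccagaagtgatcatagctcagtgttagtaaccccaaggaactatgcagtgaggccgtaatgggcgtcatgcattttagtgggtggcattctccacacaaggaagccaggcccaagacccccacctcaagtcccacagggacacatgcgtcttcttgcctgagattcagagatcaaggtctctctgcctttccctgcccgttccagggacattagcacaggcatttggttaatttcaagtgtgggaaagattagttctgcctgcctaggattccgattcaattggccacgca
Sufu intron 8 summit, chr19:46459634-46459933, plus strand: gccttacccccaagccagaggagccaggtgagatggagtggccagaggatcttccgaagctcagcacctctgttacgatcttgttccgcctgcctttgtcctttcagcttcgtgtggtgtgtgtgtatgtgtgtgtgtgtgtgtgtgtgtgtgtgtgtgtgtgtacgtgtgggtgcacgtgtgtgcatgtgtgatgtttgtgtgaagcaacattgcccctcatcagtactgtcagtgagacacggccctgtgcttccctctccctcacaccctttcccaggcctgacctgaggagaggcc
Gli2 intron 2 summit, chr1:118981881-118982180, plus strand: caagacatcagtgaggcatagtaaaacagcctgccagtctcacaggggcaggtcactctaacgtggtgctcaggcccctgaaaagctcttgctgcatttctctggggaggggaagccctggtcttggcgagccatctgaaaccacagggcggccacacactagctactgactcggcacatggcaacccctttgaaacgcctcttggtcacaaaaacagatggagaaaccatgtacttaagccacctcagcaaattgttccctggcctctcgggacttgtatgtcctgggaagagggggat
Gli3 intron 2 summit, chr13:15520069-15520368, plus strand: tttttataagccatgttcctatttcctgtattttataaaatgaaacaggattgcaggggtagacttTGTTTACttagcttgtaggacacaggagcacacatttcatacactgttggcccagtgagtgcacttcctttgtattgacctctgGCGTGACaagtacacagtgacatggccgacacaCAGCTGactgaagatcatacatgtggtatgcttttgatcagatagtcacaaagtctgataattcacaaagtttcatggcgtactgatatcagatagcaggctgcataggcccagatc
The Gli3 intron 10 window held 1 AP-1 match, and the Gli3 intron 2 window held a forkhead, a PAX and an E-box match. That intron 2 peak, at chr13:15520165-15520245, was 81 bp wide and had a fold enrichment of 5.22 with 11 fragments. Of its matches only the PAX letters lay within the peak, and the forkhead and E-box letters lay outside it. The windows of Boc, Sufu and Gli2 held none of these letters. The Sufu window held an uninterrupted run of 37 bases of alternating T and G.

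Peaks were spread very unevenly over the windows of the 9 genes, which differ in length from 112 kb at Gli1 to 366 kb at Gli3. Cdon had 90 peaks, Gli3 had 87, Sufu had 62 and Boc had 36, and these 4 genes held all but 28 of the 303. Gli1 had 11 peaks, Gli2 had 8, Ptch1 had 7, Smo had 2 and Hhip had none. A peak in a window need not belong to the member. By the nearest start site 2 of the 62 Sufu peaks fell to Sufu, and all peaks of Gli1 and Smo lay at promoters of other genes. A promoter peak was present at 4 of 9 members (44.4%, Wilson 95% interval 18.9 to 73.3), Ptch1, Gli3, Boc and Cdon, against 45.6% of the 21000 protein-coding genes. A gene body peak outside promoters was present at 6 of 9 members, against 33.2% of protein-coding genes, and any peak in the window at 8 of 9, against 77.9%. The member shares of promoter peaks and of any peak were therefore close to the background. Long genes have more room for a gene body peak, and that share was not adjusted for length.

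Of the 303 peaks, 15 were in promoters (4.95%, Wilson 95% interval 3.02 to 8.01), 211 in gene bodies (69.6%, 64.2 to 74.5) and 77 in flanks (25.4%, 20.8 to 30.6). Counting the promoters of every RefSeq gene, 34 peaks (11.2%, 8.14 to 15.3) lay at a promoter, against 21.9% of the whole list. The intervals cover counting error only, and neighbouring peaks of 1 gene are not independent. Fold enrichment is the caller's ratio of the scaled fragments over a summit to the background from the control, with 1 added to each. In the recovered values that background had a genome-wide floor of 1.055 fragments, where most member peaks stood. The median fold enrichment was 4.79 in the promoter class and 5.22 in the gene body and flank classes. The median of the whole list was 5.22. Median width was 180 bp for the members and 163 bp for the list. Recovered fragment numbers at the summit had a median of 12 for the members and 13 for the list, and 270 of the 303 peaks (89.1%) had fewer than 20 fragments. At that depth a single peak is known only to within a wide interval.

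**Figure D1:**
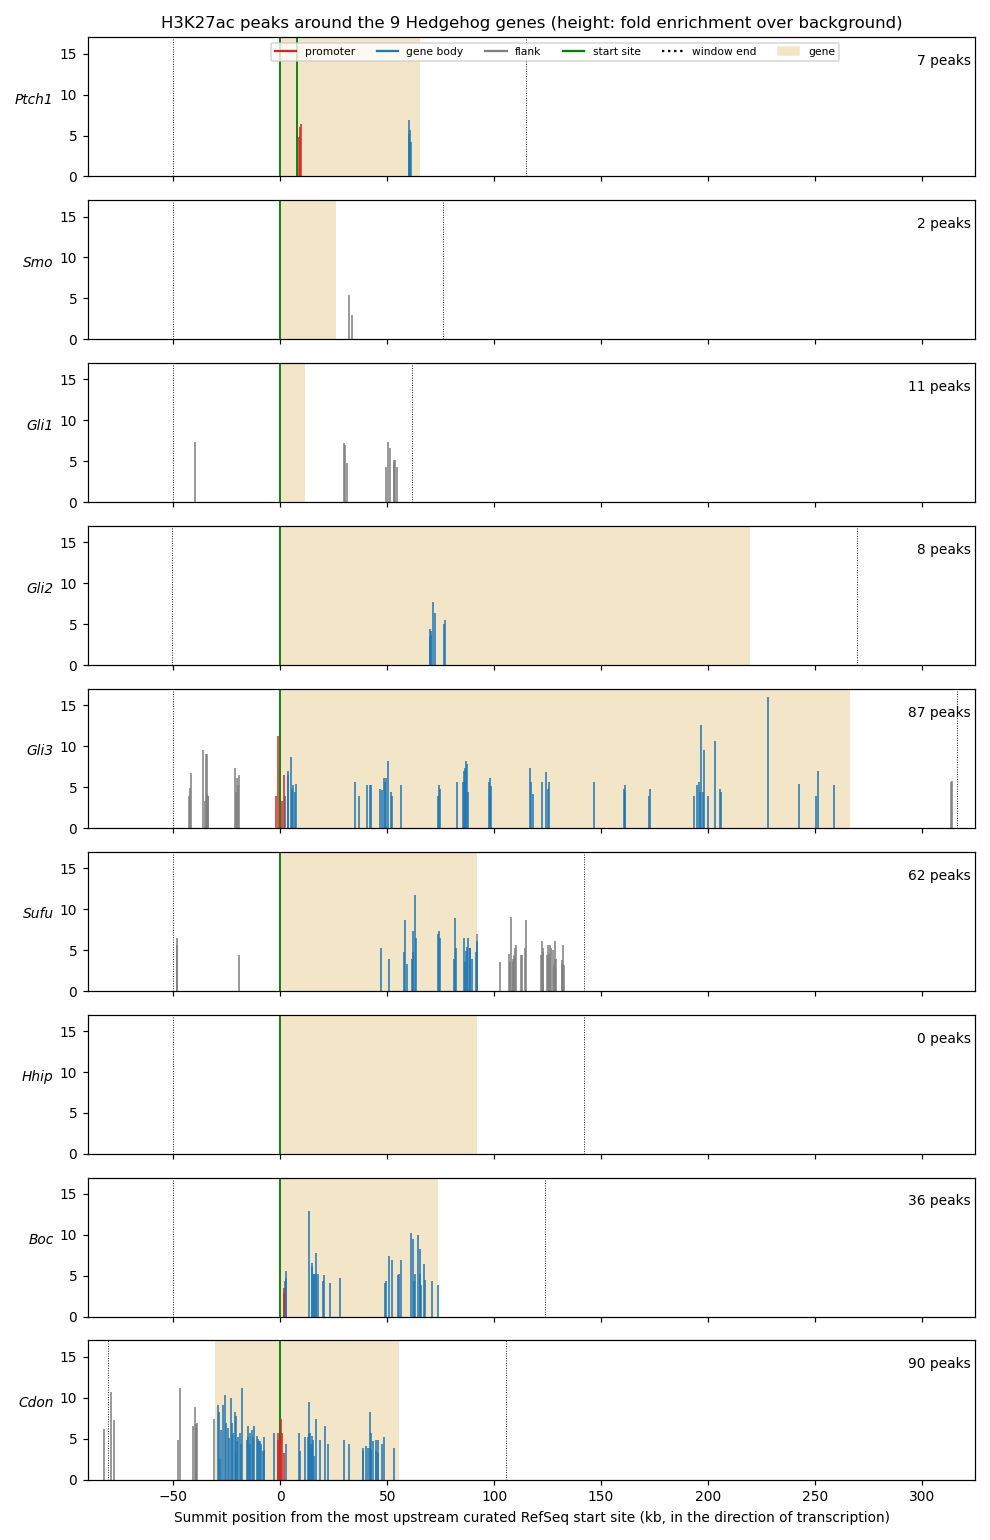
Each panel is 1 gene, with the summit of every peak at its distance in kb from the most upstream curated start site, in the direction of transcription, and its fold enrichment as the height of the line. Shading marks the gene, green lines its curated start sites, dotted lines the ends of the window and colors the class of each peak. Gli3 and Cdon had peaks over most of the gene, Sufu had them past the middle of the gene and downstream, Gli2 had 1 intronic group and Hhip had none.

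Ptch1, the receptor, spans chr13:63508328-63573460 on the minus strand and had 7 peaks, 3 near a start site and 4 in intron 22. It has 2 curated start sites, and all 3 promoter peaks belonged to the one at position 63565735, while the start at 63573460 had none. The promoter peaks had fold enrichments of 6.40 (14 fragments), 6.08 (13 fragments) and 4.79 (10 fragments), and their summits were 2049, 1444 and 891 bp downstream of the start. The 4 peaks of intron 22, close to the 3′ end of the gene, lay between positions 63512253 and 63513450. The strongest, at chr13:63512889-63513212, had a fold enrichment of 6.94 with 15 fragments (exact Poisson 95% interval 8.40 to 24.7), and the others had 5.65, 5.22 and 4.17. There was no peak in either flank. In the run of peak numbers, 2 were absent between the last peak before this window and the first after it. They may lie inside or outside the window, so its count may be incomplete.

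Hhip, the decoy receptor and a target of the pathway, had no peak in its window of 192 kb around chr8:79965850-80058060. The nearest peak was 239.5 kb from the gene, with a fold enrichment of 3.93 and 8 fragments. No peak number was absent there. With 0 peaks, this shows only that nothing passed the caller's threshold at this depth.

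Boc, a co-receptor, spans chr16:44485045-44558870 on the minus strand and had 36 peaks, 2 at the promoter, 34 in the gene body and none in the flanks. The promoter peaks were weak, with fold enrichments of 3.58 (11 fragments) and 2.97 (19 fragments), and their summits were 1852 and 1505 bp downstream of the start. The start site of the microRNA gene Mir3081 lies within Boc near the same place. The gene body held far stronger peaks. The strongest, in intron 1 at chr16:44544661-44547473, was 2813 bp wide with a fold enrichment of 12.97 and 29 fragments (19.4 to 41.7), and its summit was 13.6 kb from the start. Intron 1 held 15 of the gene body peaks. A second strong group lay toward the 3′ end, with 10.3 in intron 7 (25 fragments) and 9.96 in intron 8 (22 fragments). Peaks no more than 12.5 kb apart were joined into islands, and the 36 peaks formed 2 islands, of 17 peaks at the 5′ end and 19 at the 3′ end. Over all 22564 islands of the list the median was 3 peaks.

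Cdon, the other co-receptor, had 90 peaks in its window, of which 6 were at the curated promoter, 73 in the gene body and 11 upstream. Its RefSeq record spans chr9:35421528-35507652 on the plus strand, but the curated transcript starts at 35452076, and 39 of the peaks lay inside the record and upstream of that start. Of the 6 promoter peaks, 2 lay upstream of the start, with fold enrichments of 4.79 (10 fragments, summit at -1311 bp) and 5.65 (12 fragments, summit at -967 bp). At the start itself, a peak with a summit at 10 bp had 4.79 (10 fragments). The highest, at chr9:35452280-35452427, had 7.37 with 16 fragments and a summit 274 bp past the start. The last 2 had 5.65 (12 fragments) and 3.28 (10 fragments), with summits 840 and 1647 bp past the start. The curated start had 6 CpG dinucleotides within 500 bp. GENCODE places starts of Cdon transcripts upstream of it, one of them at -30.5 kb with 122 CpG dinucleotides, and 3 peaks with a fold enrichment of up to 9.10 lay within 2 kb of it. The strongest peaks of the window had a fold enrichment of 11.2 with 25 fragments each (16.2 to 36.9). One was at chr9:35433602-35436078, in the record upstream of the curated start, and the other was in the flank at chr9:35404655-35406245. Downstream of the curated start, intron 17 held 13 peaks and intron 7 held 11, the strongest of these with 9.53. A single island of 87 peaks ran over 101 kb, from the upstream flank to the end of the gene, and 99.9% of the islands in the list had fewer peaks. Peaks covered 15.1% of the window.

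Smo, the signal transducer under the control of PTCH1, had no peak in the gene or at its start. Both peaks in its window lay at the promoter of the neighbouring gene Ahcyl2, with fold enrichments of 5.44 (17 fragments) and 2.97 (19 fragments), and the nearer summit was 32.3 kb from the Smo start. The span of Smo is chr6:29735497-29761366 on the plus strand.

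Sufu, the cytoplasmic inhibitor of the GLI proteins, spans chr19:46396896-46488804 on the plus strand and had 62 peaks, none at its start, 26 in the gene body and 36 in the flanks. The nearest summit was 19.1 kb from the start, and no peak lay at the start of Actr1a, the gene that begins on the other side of it. The gene body peaks began past intron 2, and intron 8 held 10 with a median fold enrichment of 6.73. The strongest, in intron 8 at chr19:46459608-46459902, had a fold enrichment of 11.7 with 26 fragments. A peak in intron 10 had 8.88 with 23 fragments. Downstream of the gene lay 33 peaks, and most of them, with the strongest at 9.10 (20 fragments), lay past the start of Trim8. The promoter of Trim8 itself had 1 peak with 3.58. The peaks of the gene and of the downstream flank formed 1 island of 59 peaks over 85.8 kb, and 99.5% of islands had fewer peaks. By the nearest start site, 33 of the flank peaks and 24 of the 26 gene body peaks, the strongest included, fell to Trim8, and 2 of the 62 to Sufu.

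Gli1, the activator that serves as a readout of the pathway, had no peak in the gene, at its start or within 10 kb of it. The 11 peaks in its window all lay at promoters of other genes, Mbd6, Ddit3, Mars1 and R3hdm2, and the nearest summit was 29.6 kb from the start. Their fold enrichments were between 4.36 and 7.37, and the peak with the most fragments had 25. The span of Gli1 is chr10:127329882-127341579 on the minus strand.

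Gli2, the other main activator, spans chr1:118834061-119054405 on the minus strand and had 8 peaks, all in intron 2 within 7.46 kb. Their summits were 69.9 to 77.1 kb downstream of the start, and the start itself had no peak. The strongest, at chr1:118981554-118982507, had a fold enrichment of 7.67 with 17 fragments (9.90 to 27.2), and the others lay between 3.50 and 6.37. GENCODE gives a noncoding transcript of Gli2 that starts in the group of peaks, 71.0 kb from the curated start, with 14 CpG dinucleotides within 500 bp and 6 peaks within 2 kb.

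Gli3, the member that acts largely as a repressor, held the strongest peak of the 9 members. It spans chr13:15463723-15730026 on the plus strand and had 87 peaks, 4 at the promoter, 66 in the gene body, 15 upstream and 2 downstream. The promoter peaks had fold enrichments of 11.2 (25 fragments), 6.51, 3.93 and 3.35, and the summit of the first, at chr13:15462131-15462858, was 1278 bp upstream of the start. The median of the highest promoter fold enrichment over protein-coding genes that had one was 7.24. In the gene body, the strongest peak was in intron 10 at chr13:15690847-15692199, with a fold enrichment of 15.98, a width of 1353 bp and 36 fragments (25.2 to 49.8). It stood alone, with no other peak within 12.5 kb, and its summit was 228 kb from the start. A peak in intron 8 at chr13:15660304-15661071 had 12.5 with 44 fragments (32.0 to 59.1), the most fragments of any member peak. Another in intron 10, at chr13:15664130-15668341, was the widest of the member peaks with 4212 bp and had 10.7 with 35 fragments. Intron 3 held 19 peaks and intron 2 held 18, with fold enrichments of up to 8.24 and 8.21. Upstream of the gene, 15 peaks formed an island over 23.5 kb, the strongest with 9.53 and 21 fragments. In contrast to Sufu and Cdon, the peaks of Gli3 were in many islands, 11 in all, none of more than 15 peaks.

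**Figure D2:**
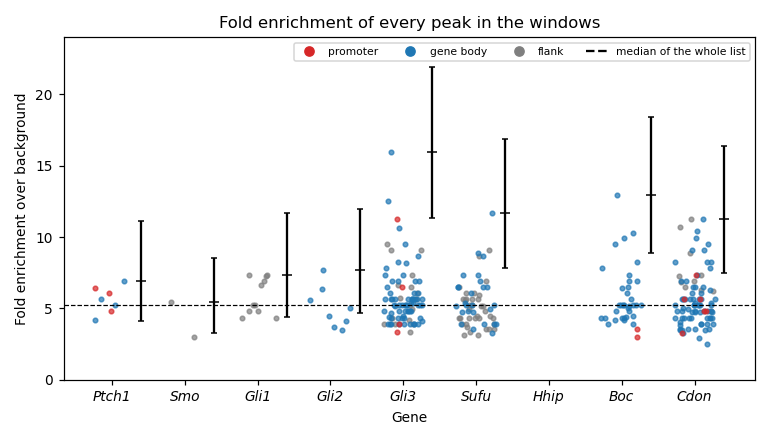
Fold enrichment over background of every peak in the windows of the 9 genes, colored by class, with a dashed line at the median of the whole list, 5.22. The black bar beside each gene is its strongest peak with the 95% Poisson interval of its fragments put on the fold scale; Gli3 had the strongest peak, 15.98, and Hhip had no peak.

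The order of the strongest peaks was Gli3, Boc, Sufu, Cdon, Gli2, Gli1, Ptch1 and Smo. On the fold scale, the Poisson interval of the Gli3 peak was 11.3 to 21.9, and it overlapped those of Boc (8.85 to 18.4), Sufu (7.80 to 16.9), Cdon (7.45 to 16.4), Gli2 (4.67 to 12.0) and Gli1 (4.42 to 11.7). It did not overlap those of Ptch1 (4.10 to 11.1) or Smo (3.31 to 8.50). Neighbours in the order therefore did not differ beyond the counting error of the fragments. The intervals hold the background fixed, and its own counting error would make them wider. The small gap between Gli3, from 11.3, and Ptch1, up to 11.1, is therefore not secure. The strongest peak is the highest of a gene's peaks, so a gene with more peaks has more chances of a high value. The medians of Gli3, Boc, Cdon and Gli1 were all 5.22, the value that 11 fragments give at the lowest background. Fold enrichment moves in such steps, so equal medians are a coarse comparison.

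Number of peaks also depends on the length of the window, so it was put per 100 kb of window and set beside all protein-coding genes, whose median was 5.62 and quartiles 0.901 and 12.5. Cdon had 48.4 peaks per 100 kb, more than 99.7% of protein-coding genes, Sufu had 32.3 (97.4%), Gli3 had 23.8 (93.2%) and Boc had 20.7 (90.3%). Most of the Sufu peaks were nearer to the start of Trim8 than to that of Sufu. Gli1 had 9.85 (67.2%), all of them at other genes. Ptch1 had 4.24 (43.2%), Gli2 had 2.50 (34.0%), Smo had 1.59 (28.6%) and Hhip had 0. Thus 4 members stood above the upper quartile and 4 below the median. Peak density differed between chromosomes as well. The medians of the chromosomes that carry the 4 densest members were 4.80 for Cdon, 6.42 for Sufu, 4.95 for Gli3 and 5.52 for Boc, and within their own chromosomes these genes exceeded 99.7%, 97.7%, 96.1% and 93.8% of the genes. Gli3 and Ptch1 are on the same chromosome and had 23.8 and 4.24 peaks per 100 kb. With a flank of 10 kb, Gli1 had no peak, Boc had 38.4 and Cdon 79.2 per 100 kb. After peaks under a −log10 q of 5 were dropped, Cdon had 23.6, Sufu 14.1, Gli3 11.7 and Boc 8.05 per 100 kb, against a median of 2.65.

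**Figure D3:**
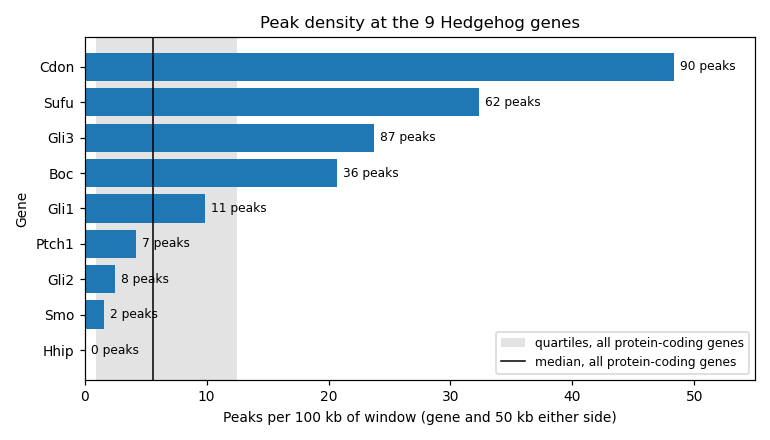
Peaks per 100 kb of window for the 9 genes, with the number of peaks beside each bar, the median of all protein-coding genes as a line and their quartiles as a grey band. Cdon, Sufu, Gli3 and Boc lie above the upper quartile of 12.5, and there are no error bars because the list comes from 1 library.

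Start sites without the mark were not poor in CpG. The protein-coding genes were split in 10 equal groups by the number of CpG dinucleotides within 500 bp of the start (of the start with the most, where a gene has several), and the share with a promoter peak ran from 3.33% in the lowest group to 72.4% in the highest. The starts of Smo, Gli1, Gli2, Sufu and Hhip had 63, 50, 65, 60 and 58, and in their groups 65.0% to 68.9% of the genes had a promoter peak. Gli3, with 128, and Ptch1, with 117, were in the highest group. Boc, with 49, was in a group with a share of 65.0%. Cdon had 6 at its curated start, and 7.90% of the genes in that group had a promoter peak. This grouping uses curated starts only. GENCODE places protein-coding starts of Cdon upstream, one of them with 122 CpG dinucleotides, so the group may not describe the promoter in use.

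The letters of known motifs were counted within 150 bp of each summit. A GLI consensus (GACCACCCA) was found in 0 of 303 member windows, which allows a share of up to 0.990% at 3 counts and 1.25% by the Wilson interval, and in 0.194% of all windows of the list. Within 250 bp of the summit there was 1 (0.330%), against 0.337%, and with 1 mismatch allowed within 150 bp there were 18 (5.94%, 3.79 to 9.19), against 5.89%. The PAX paired core was in 2 windows (0.660%, 0.181 to 2.37), 1 in Gli3 and 1 in Cdon, against 0.858%. Forkhead letters were in 10 (3.30%, 1.80 to 5.97), against 4.94%. AP-1 letters were in 31 (10.2%, 7.30 to 14.2), against 14.4%, and 11 of these were in Gli3 and 8 in Sufu. E-box letters were in 37 (12.2%, 8.99 to 16.4), against 14.6%. Of all RefSeq promoters of 300 bases, the GLI consensus was in 0.253%, the PAX paired core in 2.09%, the forkhead letters in 3.65%, the AP-1 letters in 7.81% and the E-box in 16.3%. Runs of at least 20 bases of alternating C and A, or T and G, lay within 150 bp of 16 member summits (5.28%, 3.28 to 8.40), against 3.94%. The strongest peak of Sufu and 1 of the 2 equally strong peaks of Cdon, that at chr9:35433602-35436078, had such runs near the summit, of 37 and 33 bases. Whether the runs bear on these values was not tested.

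The wider pathway was described with a list of 55 other genes, and 32 had a promoter peak (58.2%, 45.0 to 70.3), against 45.6% of protein-coding genes. By role the shares ran from 0 to 86.7%. None of the ligand genes Shh, Ihh and Dhh had one. Among genes of ligand release, Hhat, which acylates the ligand, had 6.40 and Disp1, which exports it, had 3.56, while Scube1, Scube2 and Scube3 had none. Of 3 other receptors or co-receptors only Gas1 had a promoter peak, with 6.76, and Lrp2 and Gpc3 had none. Among regulators of SMO and proteins of the cilium, 10 of 13 had one (76.9%, 49.7 to 91.8), including Gpr161, a ciliary receptor that restrains the pathway, with 11.8, and Arl13b, a ciliary GTPase, with 10.1. Among the proteins that process or phosphorylate the GLI factors, 13 of 15 had one (86.7%, 62.1 to 96.3). The strongest were those of Cul3, a ubiquitin ligase scaffold, with 17.5, Prkacb, a catalytic subunit of protein kinase A, with 17.3, Gsk3b, a kinase, with 14.8, and Fbxw11, a ubiquitin ligase adaptor, with 13.6. Kif7 and Prkaca had none. Most of these genes also serve other pathways. The shares by role were not adjusted for CpG at the start. In the group of protein-coding genes with the most CpG, 72.4% had a promoter peak, a share inside the intervals of both of these roles. The CpG numbers at the starts of the genes in these roles are not given here, so whether CpG bears on their shares was not tested.

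Reported targets of the GLI factors had a promoter peak in 6 of 16 genes (37.5%, 18.5 to 61.4), an interval that holds the 45.6% of all protein-coding genes. These were Ccnd1, encoding cyclin D1, with 7 promoter peaks of up to 6.51, Foxm1, a cell cycle transcription factor, with 10.4, Bcl2, which blocks apoptosis, with 5.93, Igfbp6 with 5.35, Cdc25b with 4.36 and Snai1 with 3.99. Ccnd2, Nkx2-2, Olig2 and Sfrp1 had no peak within 50 kb, and Foxf1, Foxf2, Foxl1 and Foxc2 had 1 in each window and none at the promoter. Foxf1, Foxl1 and Foxc2 are all on chromosome 8, and their windows may share the same peak. Mycn and Jag2 had none at the promoter and 6 in the window. Among the members that are also targets, Ptch1 had promoter peaks and Gli1 and Hhip had none.

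**Figure D4:**
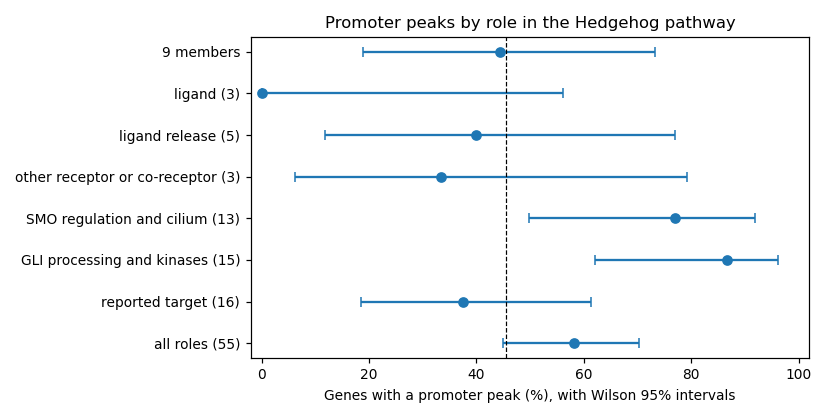
Share of genes with a promoter peak, in percent, for the 9 members and for the other genes of the pathway by role, with the number of genes in brackets, Wilson 95% intervals as bars and the share of all protein-coding genes, 45.6%, as a dashed line. The highest shares were those of genes for GLI processing (86.7%) and for SMO regulation and the cilium (76.9%).

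The label of the library was set beside marker genes. Housekeeping genes had a promoter peak in 6 of 6, skeletal muscle genes in 1 of 8 (Myf6), immune genes in 1 of 6 (Cd68), fibroblast genes in 1 of 6 (Pdgfra) and endothelial genes in 0 of 6, against 45.6% of all protein-coding genes. The muscle regulators Myod1 and Myog and the muscle stem cell factor Pax7 had no promoter peak, so the promoter peaks alone do not mark the cells as muscle. The windows of the 8 muscle genes held 36 peaks at Myf6, 29 at Myf5, 17 at Chrna1 and 15 at Des. There were 11 at Myod1, 7 at Cdh15 and 0 at Myog and Pax7, against a median of 8 over protein-coding genes. Myf5 and Myf6 are both on chromosome 10, and their windows may share peaks. Endothelial windows held from 0 (Kdr) to 15 (Tek), immune windows from 0 (Adgre1 and Itgam) to 24 (Cd68) and fibroblast windows from 0 (Lum) to 12 (Col1a1). Housekeeping windows held from 13 (Tbp) to 36 (Rplp0).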

How the data were processed

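CUT&RUN libraries of mouse tumors were prepared and sequenced by the authors, and the list used here is that of H3K27ac library MCP replicate 5, to which its peak names point. The methods of the study describe bowtie alignment to mm10, removal of problematic regions and of an amplified region near Col19a1, and MACS1.4 calls against IgG, whereas the submitters' processing notes name BWA, SAMtools and MACS2, with the builds mm10 and dm6. The list is named for MACS2 and has its layout. Which aligner preceded it, and the threshold, are not given in the sources used here, and its largest q was 0.0471. Peak names skip 584 numbers, of which nothing is known here. The deposited fold enrichment is the caller's ratio at the summit, the deposited −log10 p and −log10 q belong to the same summit, and the deposited score is the whole part of 10 times the −log10 q, as the authors' caller wrote them.

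Fragments were recovered by solving fold enrichment and −log10 p together for a whole number. With a scale of 0.885 between libraries and a tolerance of 0.01 on the −log10 p, 99.9992% of peaks gave one, and 96.7% had a single solution (8 member peaks had more). They are inferences, not read counts, and library depth is not stated, so exact Poisson 95% intervals cover counting error only. The median peak had 13 fragments.

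Start sites (31599) came from curated RefSeq transcripts of GRCm38.p6, and GENCODE M21 was the alternative. Windows, overlaps and fragment recovery were tested on simulated data. Shares have Wilson 95% intervals. All 9 members are named, with the strongest peak of each class and every promoter peak. Other genes are named from a list by role, or where their start lies in a member's window. Some items are not reported here. The members and lists were chosen with earlier results of these data known, and runs of CA or TG were counted after the sequences were seen. Alternatives changed the peak threshold, overlap, promoter window, flank, start sites, motif window and mismatch. Python 3.11.15, numpy 2.4.6, pandas 2.3.3, scipy 1.17.1 and matplotlib 3.10.9 were used.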

Additional observations from a re-analysis of the deposited data

How the results depend on the processing

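The 303 peaks in the windows fell to 144 at a −log10 q of 5 or more, to 76 among the 25% of the list with the highest −log10 q, and to 150 when the nearest start site had to be that of the member. The last setting removes every peak of Boc and Gli2, because the starts of Mir3081 and Mir6346 lie inside those genes. It also removes every peak of Gli1 and Smo and leaves 2 of the 62 peaks of Sufu, because starts of other genes are nearer. Among those highest 25%, 2 members kept a promoter peak (Gli3 and Cdon), as did 6160 protein-coding genes and 17 genes of the wider list. With promoters of 1 kb either side, the promoter share of member peaks was 2.31%, and Boc had no promoter peak, as was also the case at a −log10 q of 5 or more. Allowing 1 mismatch, the GLI consensus was in 5.94% of member windows. With GENCODE starts, 6 members had a promoter peak, Gli2 and Sufu in addition, at starts of noncoding transcripts within the genes. Of 20499 protein-coding genes with GENCODE starts, 9879 (48.2%) had a promoter peak, against 45.6% with RefSeq starts. The order of the 4 densest members held at a −log10 q of 5 or more, but with a flank of 10 kb Boc came before Sufu and Gli3. By the share of the window covered by peaks, Sufu came last of the 4. Cdon had 15.1%, Gli3 7.89%, Boc 7.47% and Sufu 7.31%, against a median of 1.33% over protein-coding genes. The span of curated transcripts alone, chosen after seeing the data, gave 300 peaks. Of all values recomputed, 45 stayed within 1.5 times the count or within the counting interval of the share or fold, and 8 did not. No paired analysis was possible because 1 library has a peak list here. Depth limits what a single peak can show, since 84.2% of the list had fewer than 20 fragments.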

Other observations

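The windows cut through regions rich in peaks at some members. Beyond the upstream end of the Cdon window, an island of 43 peaks had only 3 of them inside, and the first peak outside, 51.9 kb from the gene, had a fold enrichment of 8.71 with 21 fragments. At Ptch1 the first peak outside lay 75.9 kb from the gene and had a fold enrichment of 10.4 with 23 fragments, above the 6.94 of the strongest peak inside. The first peak outside the Gli2 window, 53.2 kb from the gene, had 8.29 with 27 fragments, and the strongest inside had 7.67.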
